A study of Mus musculus with 26 samples.

Results

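Lifr, Il6st, Jak1, Stat3, Socs3, Osm, Pim1 and Pim3 are 8 genes of the pathway that carries the signal of leukemia inhibitory factor (LIF) to the transcription factor STAT3. They were taken by name from a table of 24421 mouse genes, with earlier results of these data known. All 8 were among the 15238 genes with enough reads to be tested. RNA was sequenced from mouse embryonic stem cells (ESCs) in 7 groups of 2 clones each, and the clone was the unit of replication (n = 2 per group). Cells of the 6 knockout groups were ERR beta -/-, that is, they lacked both normal copies of Esrrb, the gene of the orphan nuclear receptor ERR beta. They expressed wild-type ERR beta (KO_ERRb_wt), a mutant deficient in DNA binding (KO_ERRb_DBDm3), one deficient in binding the general transcription factor TFIIH (KO_ERRb_DBDm6), one deficient in coactivator binding (KO_ERRb_AF2M6), wild-type ERR gamma (KO_ERRg_wt), or nothing (KO_mock). Wild-type cells with no ectopic protein (WT_mock) were the remaining group. Every group received doxycycline at 2 µg/ml for 3 days, and 1600 cells were seeded. The labels name a serum-free medium with a MEK inhibitor and a GSK3 inhibitor, and only one of their 2 descriptions adds LIF, so whether the cells were given LIF, the main ligand of this pathway, is not settled by the labels.

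LIF binds a receptor made of LIFR and the shared chain gp130, the product of Il6st. Receptor-bound kinases of the JAK family, JAK1 foremost in ESCs, then phosphorylate STAT3, which enters the nucleus and activates its target genes. Socs3 is one of these targets and encodes an inhibitor of the receptor complex, and Pim1 and Pim3 encode serine/threonine kinases that favour self-renewal of mouse ESCs. Oncostatin M, the product of Osm, is a cytokine of the same family. In mouse ESCs the LIF-STAT3 pathway is known for sustaining self-renewal, and Esrrb is one of the transcription factors of the same naive state.

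The 26 libraries held 21276790 to 30021667 counts, and each clone gave 2 libraries, or 1 in KO_ERRg_wt. ESC markers were high in every clone (summed level of 7 markers 2890 to 3590 CPM, counts scaled to a fixed library total). Esrrb stood at 416 to 546 CPM of library totals in the 5 groups with an ectopic protein, KO_ERRg_wt included, at 273 and 275 CPM in KO_mock and at 631 and 579 CPM in WT_mock. Reads thus still fell on the gene in the knockout, and the counts do not separate the construct from the endogenous gene. Esrrg was at 229 and 126 CPM in KO_ERRg_wt and at most 0.234 CPM in any clone of the other groups. Genes of chromosomes 6 and 8 were lower as a whole in the 3 mutant groups and KO_ERRg_wt, and those of chromosome 14 in all knockout groups against WT_mock. None of the 8 genes lies on these chromosomes, and the median log2 fold change of their own chromosomes was at most 0.074 in size in any comparison. In the mutant groups and KO_ERRg_wt, however, the shift of chromosomes 6 and 8 came together with the expressed protein. The chromosome 14 shift likewise came together with the knockout. Any part of these shifts in the levels of genes on other chromosomes was not tested.

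4 clones stood apart in that their 2 libraries were less alike than those of the other clones. The median absolute log2 ratio of the 2 libraries over 12382 genes was 0.132 in clone 9-6 (KO_ERRb_DBDm3), 0.137 and 0.149 in clones 10-24 and 10-26 (KO_ERRb_DBDm6) and 0.127 in clone 32-25 (KO_ERRb_AF2M6), against 0.0678 to 0.0961 in the other 8 clones. The libraries' values of the 8 genes in these clones are described with Socs3. The 2 KO_ERRb_DBDm3 clones also differed from each other, with log2 gaps of 2.11 for Socs3, 1.19 for Osm, 0.867 for Pim1 and 0.664 for Stat3, the widest clone gap of each of these genes in any group.

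RefSeq promoter windows (build GRCm38.p6, 250 bases before to 50 after each start) were at hand for 7 of the 8 genes. They were searched on both strands for the STAT motif TTCNNNGAA, for its variant with 4 free bases between TTC and GAA, and for the ERR binding motif AAGGTCA, and no window held more than 1 of these motifs. TTCNNNGAA was in the window of Socs3 and in 8.3% of all 32851 windows. The variant was in none of the 7 genes' windows and in 6.95% of all windows. AAGGTCA was in the windows of Lifr and Pim3 and in 4.72% of all windows, and both held it on the opposite strand, where it reads TGACCTT. The 250 bases before the start are printed for these 3 genes, since they alone held a match, 5′ to 3′ along the gene with the match in capitals.
Socs3, chr11:117969367-117969616, minus strand: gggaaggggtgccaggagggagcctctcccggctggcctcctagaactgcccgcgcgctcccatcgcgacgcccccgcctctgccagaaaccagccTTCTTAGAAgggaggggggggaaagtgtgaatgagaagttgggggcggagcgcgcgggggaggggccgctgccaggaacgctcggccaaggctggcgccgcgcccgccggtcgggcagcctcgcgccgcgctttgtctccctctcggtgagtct
Lifr, chr15:7129322-7129571, plus strand: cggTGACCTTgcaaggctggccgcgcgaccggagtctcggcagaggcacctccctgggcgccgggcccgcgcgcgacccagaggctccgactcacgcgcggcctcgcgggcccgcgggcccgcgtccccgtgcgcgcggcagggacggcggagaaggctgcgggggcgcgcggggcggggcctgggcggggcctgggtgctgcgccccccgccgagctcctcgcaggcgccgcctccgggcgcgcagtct
Pim3, chr15:88861944-88862193, plus strand: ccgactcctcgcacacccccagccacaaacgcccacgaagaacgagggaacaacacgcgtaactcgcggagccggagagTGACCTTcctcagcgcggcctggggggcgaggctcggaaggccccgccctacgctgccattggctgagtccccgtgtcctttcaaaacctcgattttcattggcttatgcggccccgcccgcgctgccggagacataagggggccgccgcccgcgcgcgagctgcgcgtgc
A second Lifr window, at another start, held no match. The match begins 154 bases before the start of Socs3, 247 bases before that of Lifr and 171 bases before that of Pim3. A match shows letters only, not that a factor was bound.

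Levels per length, in RPKM (CPM divided by exon length in kilobases), placed Pim1 first of the 8 genes with a mean of 30.6 over the 14 clones, followed by Il6st at 23.8, Pim3 at 19.9, Stat3 at 18.8, Lifr at 11.9, Jak1 at 8.52, Osm at 6.09 and Socs3 at 5.11. Osm ranged most widely, and its group means differed by up to 16.1 times, against 2.95 times for Jak1, 2.73 times for Socs3 and 1.51 to 2.02 times for the other 5 genes.

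**Figure D1:**
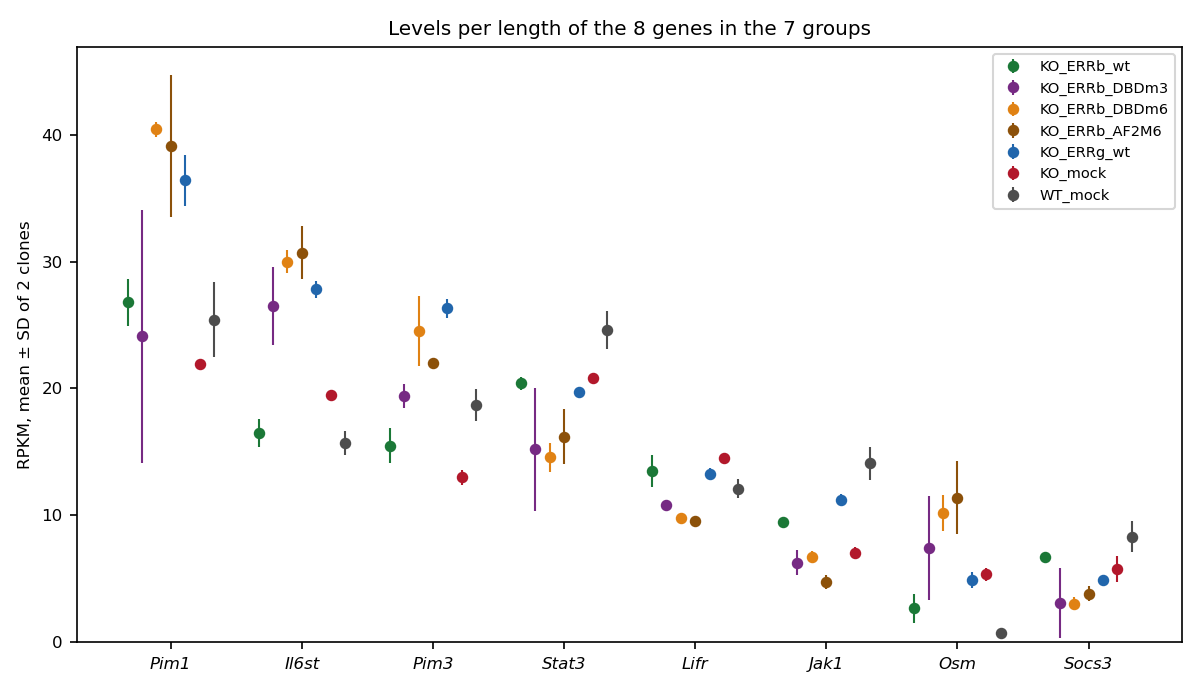
Levels per length of the 8 genes in RPKM (y axis), genes ordered by their mean over the 14 clones. Each point is the mean of 2 clones of a group and each bar its SD. Pim1 is highest in most groups, and Osm is the lowest point of the plot in WT_mock at 0.708 RPKM.

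The ligand Osm (mm10 chromosome 11, 4236785 to 4241026, plus strand) was lowest in wild-type cells. Its level was 3.59 and 6.66 CPM in the 2 KO_ERRb_wt clones, 19.7 and 8.6 CPM in KO_ERRb_DBDm3, 21.3 and 17.4 CPM in KO_ERRb_DBDm6 and 17.9 and 25.7 CPM in KO_ERRb_AF2M6. It was 8.5 and 10.3 CPM in KO_ERRg_wt, 9.46 and 10.9 CPM in KO_mock and 1.22 and 1.48 CPM in WT_mock. All 12 knockout clones were above both WT_mock clones, KO_ERRb_wt was the lowest knockout group, and the 5 highest clones were those of KO_ERRb_DBDm6 and KO_ERRb_AF2M6 and clone 9-6 of KO_ERRb_DBDm3. In KO_mock, Osm averaged 10.2 ± 1.03 CPM against 1.35 ± 0.187 CPM in WT_mock (SD, n = 2 each), a log2 fold change of 2.91 ± 0.415 (standard error, adjusted p = 0.000708, edgeR). KO_ERRb_wt was above WT_mock by 1.92 ± 0.417 (adjusted p = 0.018), a call that was lost on leaving out clone 5-2, 5-5 or 8-4 (adjusted p up to 0.19) and with only library 2 of each clone (0.0887). Both KO_ERRb_wt clones were below both KO_mock clones, and this difference of −0.99 ± 0.369 did not pass the test (adjusted p = 0.177). Against KO_ERRb_wt, Osm was higher by 1.47 in KO_ERRb_DBDm3, 1.92 in KO_ERRb_DBDm6 and 2.09 in KO_ERRb_AF2M6 on the log2 scale (adjusted p = 0.0117, 0.0021 and 0.00115). The KO_ERRb_DBDm3 call was lost without clone 8-3 or 9-6, with adjusted p up to 0.0976. Against KO_mock, the call was made in KO_ERRb_AF2M6 (1.10 ± 0.357, adjusted p = 0.0328), where it was lost without clone 12-1, 12-3 or 32-31 (adjusted p up to 0.205), with no filter on low counts (0.0857) and with only library 2 of each clone (0.0858). KO_ERRb_DBDm6 was above KO_mock by 0.93 ± 0.357, short of the test (adjusted p = 0.0579), and passed it without clone 8-3, 8-4, 9-6 or 9-8. Osm in KO_ERRg_wt was not separated from KO_mock, at −0.12 ± 0.367 with overlapping clones.

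Leukocytes are the best known source of oncostatin M. The leukocyte markers Ptprc, Csf1r and Adgre1 had 14, 17 and 1 counts over all 26 libraries together, and the summed level of the 6 leukocyte markers was 8.67 to 8.7 CPM in KO_mock and 9.27 to 12 CPM in WT_mock. Csf1r was at 0 in both of these groups and Adgre1 in WT_mock. The 4 markers of primed or formative cells summed to 475 to 482 CPM in KO_mock and to 144 to 169 CPM in WT_mock, and none was at 0. Nearly all of this sum was Dnmt3b, a DNA methyltransferase and the 1 marker of the 4 that was called, at 473 ± 2.98 CPM in KO_mock against 150 ± 17 CPM in WT_mock (log2 1.65 ± 0.254, adjusted p = 0.000997). Otx2, Fgf5 and Pou3f1 did not pass the test. Fibroblast markers were low in both, at 2.25 to 2.48 CPM in KO_mock and 0.899 to 1.46 CPM in WT_mock over 6 markers, with Postn at 0 in both groups. In the mutant groups the fibroblast markers summed to 2.28 to 2.73 CPM (KO_ERRb_DBDm3), 4.07 to 5.51 CPM (KO_ERRb_DBDm6) and 2.35 to 5.36 CPM (KO_ERRb_AF2M6), with Postn and Lum at 0 in all 3, against 0.864 to 1.42 CPM in KO_ERRb_wt, with Postn at 0. The leukocyte markers summed to 10.5 to 15.1, 10.4 to 11.4 and 11.2 to 12.1 CPM in the same mutant groups, against 8.49 to 9.57 CPM in KO_ERRb_wt, and Adgre1 was at 0 in all of these groups. Of single markers, Thy1 had 2.2, 4.55 and 3.55 CPM and Cd68 9.47, 8.83 and 9.31 CPM in the mutant groups, against 0.766 CPM of Thy1 and 3.77 CPM of Cd68 in KO_ERRb_wt. The lists did not move as a whole. Of 3 leukocyte markers tested against KO_ERRb_wt, 1 was called higher and 1 lower in each mutant group. Of 3 fibroblast markers tested, 1 was called higher in each mutant group and 1 lower in KO_ERRb_DBDm6. Of all tested genes, 32.1% were called against KO_ERRb_wt in KO_ERRb_DBDm3, 39% in KO_ERRb_DBDm6 and 43.2% in KO_ERRb_AF2M6. The part of these markers' cells in the Osm level was not tested. In bulk RNA, a change in how many cells express a gene and a change in its RNA per cell cannot be told apart.

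Lif lies 16541 bases from Osm on chromosome 11 with no other gene of the table between them, and it is named here after its values were seen. Its mean was 10.9 ± 0.685 CPM in KO_ERRb_wt, 18.5 ± 9.02 CPM in KO_ERRb_DBDm3, 11.7 ± 1.5 CPM in KO_ERRb_DBDm6, 13.6 ± 4.4 CPM in KO_ERRb_AF2M6, 8.58 ± 1.09 CPM in KO_ERRg_wt, 12.8 ± 1.35 CPM in KO_mock and 11.1 ± 0.732 CPM in WT_mock (SD, n = 2 clones each). Lif did not pass the test in any comparison, and KO_mock and WT_mock differed by 0.20 ± 0.294 on the log2 scale, against 2.91 for Osm. Of the 7 listed ligands other than Osm, Lif among them, 5 could be tested, and Il6 and Il27 had 1 count each in all libraries. Clcf1, a cytokine that signals through the CNTF receptor, was the only one called among the 7 groups: it was lower in KO_mock, at 0.122 ± 0.0114 CPM against 0.859 ± 0.282 CPM in WT_mock (log2 −2.79 ± 0.432, adjusted p = 0.000964), and 20.6% of its exonic bases are shared with a read-through gene on the same strand.

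**Figure D2:**
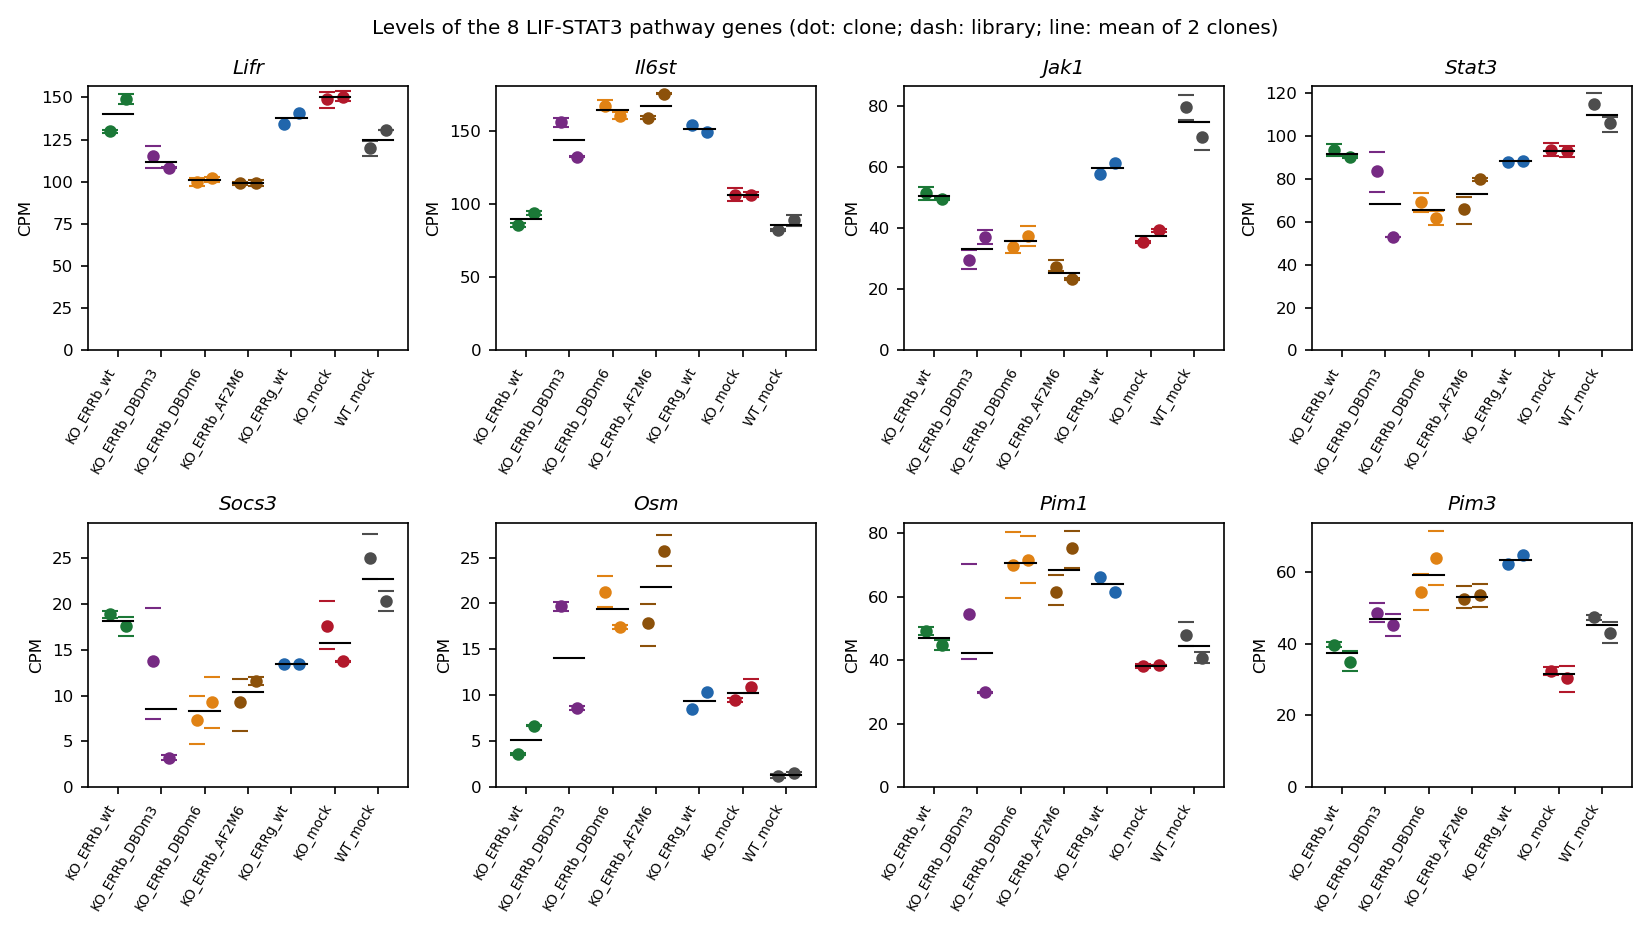
CPM (y axis, from 0) of each of the 8 genes in the 7 groups (x axis). Dots are the 14 clones, dashes the 2 libraries of a clone and black lines the mean of 2 clones. Osm is lowest in WT_mock at 1.22 and 1.48 CPM, and the Socs3 and Pim1 dashes of KO_ERRb_DBDm3 lie far apart.

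The 2 receptor chains moved in opposite directions in the mutant groups. Lifr (chromosome 15, 7129572 to 7197489, plus strand) had 130 and 149 CPM in the KO_ERRb_wt clones, 115 and 108 CPM in KO_ERRb_DBDm3, 99.9 and 102 CPM in KO_ERRb_DBDm6 and 99 and 99.4 CPM in KO_ERRb_AF2M6. It had 134 and 141 CPM in KO_ERRg_wt, 149 and 150 CPM in KO_mock and 120 and 131 CPM in WT_mock. All 6 mutant clones were below all other clones. Against KO_mock, Lifr was lower by a log2 fold change of −0.42 ± 0.0726 in KO_ERRb_DBDm3, −0.57 ± 0.0727 in KO_ERRb_DBDm6 and −0.59 ± 0.0727 in KO_ERRb_AF2M6 (adjusted p = 0.00207, 0.000157 and 0.000146), and against KO_ERRb_wt by −0.32, −0.47 and −0.49 (adjusted p = 0.00666, 0.000507 and 0.000344). These 6 calls held on leaving out any of the 14 clones. In KO_mock, Lifr averaged 150 ± 1.03 CPM against 125 ± 7.78 CPM in WT_mock (0.25 ± 0.0724, adjusted p = 0.0182), and this call was lost without clone 5-2, 12-1 or 12-3 (adjusted p up to 0.149). KO_ERRg_wt and KO_ERRb_wt overlapped, with a difference of −0.02 ± 0.0727.

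Il6st (chromosome 13, 112464070 to 112506860, plus strand) had 85.6 and 94 CPM in the KO_ERRb_wt clones, 156 and 132 CPM in KO_ERRb_DBDm3, 167 and 160 CPM in KO_ERRb_DBDm6 and 159 and 175 CPM in KO_ERRb_AF2M6. The level was 154 and 149 CPM in KO_ERRg_wt, 106 in both KO_mock clones and 82.1 and 89.1 CPM in WT_mock. The 8 clones of the mutant and KO_ERRg_wt groups were thus above all 6 other clones, and KO_ERRb_wt overlapped WT_mock. Il6st was higher than in KO_ERRb_wt by log2 fold changes of 0.68 (KO_ERRb_DBDm3), 0.87 (KO_ERRb_DBDm6), 0.90 (KO_ERRb_AF2M6) and 0.75 (KO_ERRg_wt), with standard errors of 0.0862 to 0.0866 and adjusted p from 3.15e-05 to 0.000285. It was higher than in KO_mock by 0.44, 0.62, 0.65 and 0.51 in the same order (adjusted p = 0.0041, 0.000251, 0.000217 and 0.000993), and none of the 8 calls was lost on leaving out any clone. KO_mock was above WT_mock by 0.31 ± 0.0861 (adjusted p = 0.0156), lost when clone 5-2, 12-1 or 12-3 was left out. KO_ERRb_wt was below KO_mock by −0.24 ± 0.0861 and did not pass the edgeR test (adjusted p = 0.158), while limma with 2 libraries per clone and no replicate block called it at an adjusted p of 0.0353.

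The 5 other receptor chains were low. Cntfr, the chain that binds ciliary neurotrophic factor, was lower in all 4 groups with a mutant or ERR gamma: it averaged 0.721 ± 0.429 CPM in KO_ERRb_DBDm3, 0.48 ± 0.256 CPM in KO_ERRb_DBDm6, 0.707 ± 0.0667 CPM in KO_ERRb_AF2M6 and 0.593 ± 0.225 CPM in KO_ERRg_wt, against 3.57 ± 0.189 CPM in KO_mock (SD, n = 2 each). The log2 fold changes against KO_mock were −2.33, −2.88, −2.33 and −2.57, with adjusted p from 0.000454 to 0.00272. Osmr, the oncostatin M receptor chain, was near its detection limit in every group, with 0.0444 ± 0.00157 CPM in KO_mock and 0.233 ± 0.0379 CPM in WT_mock (−2.32 ± 0.663, adjusted p = 0.0202), and its call was lost without clone 5-2, 12-1 or 12-3. In KO_ERRb_DBDm6 it had 0 counts, which allows up to 0.031 CPM (3 counts over the group). Il6ra, the interleukin 6 receptor chain, differed among the 7 groups (adjusted p = 0.0417) but in no single comparison, and that call was lost on leaving out any of 11 clones.

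Jak1 (chromosome 4, 101151974 to 101265282, minus strand) was highest in wild-type cells. It had 51.3 and 49.5 CPM in the KO_ERRb_wt clones, 29.6 and 37 CPM in KO_ERRb_DBDm3, 33.7 and 37.4 CPM in KO_ERRb_DBDm6 and 27.4 and 23.3 CPM in KO_ERRb_AF2M6. KO_ERRg_wt had 57.7 and 61.2 CPM, KO_mock 35.5 and 39.2 CPM and WT_mock 79.6 and 69.8 CPM. The groups fell into the order WT_mock, KO_ERRg_wt, KO_ERRb_wt and KO_mock with no overlap between neighbours, KO_ERRb_DBDm3 and KO_ERRb_DBDm6 overlapped KO_mock, and KO_ERRb_AF2M6 was below all others. Jak1 was 2-fold lower in KO_mock than in WT_mock (log2 −1.001 ± 0.119, adjusted p = 0.000287). KO_ERRb_wt was 0.43 ± 0.118 above KO_mock, which did not pass the edgeR test (adjusted p = 0.0847) but did in DESeq2 (adjusted p = 0.0274) and in limma without a replicate block (0.0321). It was −0.57 ± 0.117 below WT_mock (adjusted p = 0.0147), a call lost without clone 5-2 or 8-4 (adjusted p up to 0.177) and with only library 2 of each clone (0.0659). KO_ERRg_wt was 0.67 ± 0.119 above KO_mock (adjusted p = 0.00132), and KO_ERRb_AF2M6 was −0.56 ± 0.12 below it (adjusted p = 0.00389). Against KO_ERRb_wt, Jak1 was lower in KO_ERRb_DBDm3 (−0.60 ± 0.119, adjusted p = 0.0034), in KO_ERRb_DBDm6 (−0.50 ± 0.118, adjusted p = 0.00611) and in KO_ERRb_AF2M6 (−0.99 ± 0.12, adjusted p = 0.000103). Of these, the KO_ERRb_DBDm6 call was lost without clone 10-24 (adjusted p = 0.0579).

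The summed level of the 7 markers of primitive endoderm had the same order of groups as Jak1 at the top: 9.87 to 10.2 CPM in WT_mock, 8.76 to 9.03 CPM in KO_ERRg_wt, 5.71 to 6.28 CPM in KO_ERRb_wt and 2.43 to 3.01 CPM in KO_mock, and to 1.6 to 2.56 CPM in the mutant groups. Of the 7 markers, 2 were called among the 7 groups, Gata4 and Sox7, where 69.6% of all tested genes were called. The means of Gata4 had this order, with KO_ERRg_wt and KO_ERRb_wt almost equal, and those of Sox7 did not. In KO_mock against WT_mock, 4 of the 7 were called, all lower, where 37.4% of all tested genes were called. Gata4 had 2.45 CPM in KO_ERRg_wt, 2.44 CPM in KO_ERRb_wt, 1.44 CPM in KO_mock and 7.39 CPM in WT_mock, and Sox7 had 4.98, 2.45, 0.167 and 0.928 CPM in the same groups. None of the 7 was at 0 in any group, and their part in the Jak1 level was not tested.

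Stat3 (chromosome 11, 100886810 to 100939511, minus strand) was lowest in the mutant groups. It had 93.4 and 90.1 CPM in the KO_ERRb_wt clones, 83.8 and 52.9 CPM in KO_ERRb_DBDm3, 69.2 and 61.9 CPM in KO_ERRb_DBDm6 and 65.9 and 79.8 CPM in KO_ERRb_AF2M6. KO_ERRg_wt had 87.9 and 88.5 CPM, KO_mock 93.5 and 93 CPM and WT_mock 115 and 106 CPM. All 6 mutant clones were below the other 8, the 2 WT_mock clones were above all others, and the mutant groups overlapped one another. Stat3 differed among the 7 groups (adjusted p = 0.0137), which was lost without clone 5-2 (adjusted p = 0.0557). Of the 11 comparisons it passed the test in KO_ERRb_DBDm6 against KO_mock (−0.51 ± 0.166, adjusted p = 0.0299) and against KO_ERRb_wt (−0.49 ± 0.166, adjusted p = 0.0383), and these calls were lost on leaving out any of 4 and any of 10 clones. Both were also lost with only library 1 of each clone (adjusted p = 0.0953 and 0.129) and with no filter on low counts (0.0612 and 0.0768). The difference was −0.45 ± 0.166 in KO_ERRb_DBDm3 against KO_mock (adjusted p = 0.0696), −0.36 ± 0.166 in KO_ERRb_AF2M6 against KO_mock (adjusted p = 0.113) and −0.24 ± 0.165 in KO_mock against WT_mock (adjusted p = 0.272). Leaving out clone 9-6 or clone 9-8, the 2 clones of KO_ERRb_DBDm3, removes the gap between them from the standard error. Either way, the KO_ERRb_AF2M6 and the KO_mock differences passed the test, and the count over all genes was higher too.

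Among 9 other kinases, STATs and adaptors, 8 differed among the 7 groups and 2 were called, both lower, in KO_mock against WT_mock, where 69.6% and 37.4% of all tested genes were called. Tyk2, a JAK family kinase, was lower against KO_mock in KO_ERRb_DBDm6 (41.9 ± 2.13 against 61.9 ± 2.07 CPM, −0.56 ± 0.106, adjusted p = 0.00162) and in KO_ERRb_AF2M6 (35.9 ± 1.82 CPM, −0.79 ± 0.107, adjusted p = 0.000257). It was also lower in KO_ERRb_DBDm3 (48.8 ± 8.77 CPM, −0.34 ± 0.106, adjusted p = 0.0346), a call lost on leaving out any of 5 clones (adjusted p up to 0.219). With only library 2 of each clone, this call and that in KO_ERRb_DBDm6 were lost. Grb2, an adaptor toward the MAP kinase cascade, was higher against KO_ERRb_wt in all 3 mutant groups and KO_ERRg_wt, by log2 fold changes of 0.38 to 0.53 (adjusted p = 0.000635 to 0.00716). With only library 2 of each clone, its KO_ERRb_DBDm6 call was lost. Against KO_mock, Grb2 was called only in KO_ERRb_AF2M6 (0.345, adjusted p = 0.0091), and this call was lost without clone 12-1. Gab1, a docking protein for the phosphatase SHP2, was lower against KO_mock in all 3 mutant groups and KO_ERRg_wt, by −0.55 to −0.72. It lies on chromosome 8, whose genes had medians of −0.49 to −0.55 in these comparisons. The part of that shift in the Gab1 level was not tested.

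Socs3 (chromosome 11, 117966087 to 117969366, minus strand), the feedback inhibitor, had 18.9 and 17.6 CPM in the KO_ERRb_wt clones, 13.8 and 3.21 CPM in KO_ERRb_DBDm3, 7.37 and 9.28 CPM in KO_ERRb_DBDm6 and 9.28 and 11.6 CPM in KO_ERRb_AF2M6. Levels were 13.4 and 13.5 CPM in KO_ERRg_wt, 17.6 and 13.8 CPM in KO_mock and 25.1 and 20.3 CPM in WT_mock. WT_mock was above all other clones, the clones of KO_ERRb_DBDm6 and KO_ERRb_AF2M6 were below those of KO_ERRg_wt, KO_mock, KO_ERRb_wt and WT_mock, and KO_ERRb_DBDm3 held both a middling and the lowest clone. With a standard error of 0.437 to 0.45, Socs3 passed the edgeR test in none of the 11 comparisons, 2 of which had an unadjusted p below 0.05, nor among the 7 groups (adjusted p = 0.0668). The largest differences were −1.13 ± 0.45 in KO_ERRb_DBDm6 and −1.09 ± 0.449 in KO_ERRb_DBDm3, both against KO_ERRb_wt (adjusted p = 0.0672 and 0.0859). DESeq2 called it in none of the 11 comparisons, and limma with 2 libraries per clone and no replicate block called these 2 (adjusted p = 0.0264 and 0.0159).

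The gap between the 2 KO_ERRb_DBDm3 clones widened the standard error of Socs3. Without clone 9-8 its standard error fell to 0.156 for KO_mock against WT_mock, and the test was then passed there (−0.53, adjusted p = 0.0151), in KO_ERRb_DBDm6 against KO_mock (−0.91, adjusted p = 0.000588) and KO_ERRb_wt (−1.13, adjusted p = 0.000118), and in KO_ERRb_AF2M6 against KO_mock (−0.59, adjusted p = 0.0098) and KO_ERRb_wt (−0.81, adjusted p = 0.00119). With clone 9-8 left out, these 5 log2 fold changes hardly moved, and the count over all genes was higher in each. The same 5 comparisons passed without clone 9-6, the other KO_ERRb_DBDm3 clone. That fit removes the same gap, so the 2 results are not independent. KO_ERRb_DBDm3, then clone 9-8 alone, was also below KO_mock (−2.29, adjusted p = 1.25e-05) and KO_ERRb_wt (−2.51, adjusted p = 5.56e-06), whereas with clone 9-6 alone it differed by −0.18 and −0.40 (adjusted p = 0.589 and 0.165).

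The 2 libraries of 4 clones were split on Socs3. Library 1 had 19.6 CPM and library 2 had 7.39 CPM in clone 9-6, 10 and 4.71 CPM in clone 10-24, 12 and 6.46 CPM in clone 10-26, and 11.8 and 6.15 CPM in clone 32-25, ratios of 1.86 to 2.65. In the other 8 clones the ratio was 0.745 to 1.17. Stat3 leaned the same way in those 4 clones, with ratios of 1.12 to 1.25 against 0.918 to 1.07 in the other 8. Jak1 and Pim3 leaned the opposite way, Jak1 with ratios of 0.813 to 0.885 against 0.92 to 1.14 and Pim3 with 0.786 to 0.894 against 0.966 to 1.28. Pim1 did so too, with 0.573 to 0.855 against 0.854 to 1.17, where clone 5-2 had 0.854. These 4 clones are the same ones in which the 2 libraries differed most over all genes, and what set their libraries apart was not tested.

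**Figure D3:**
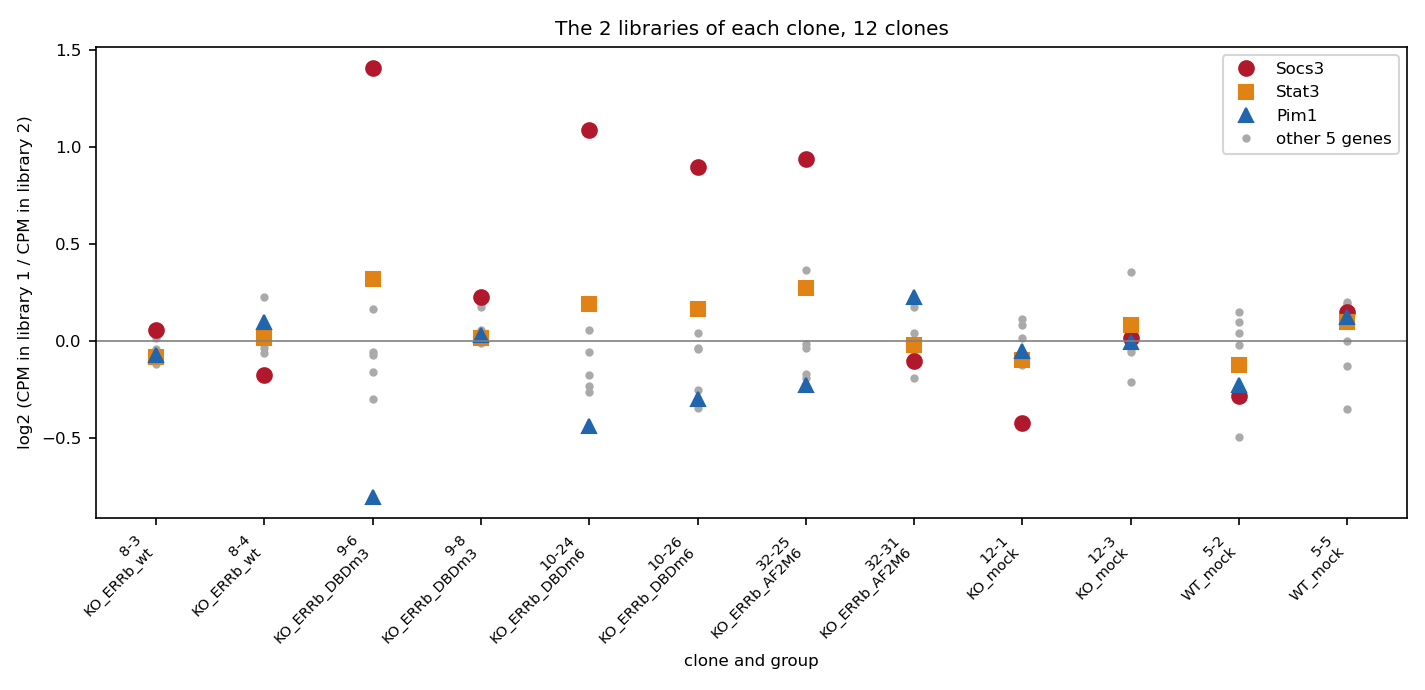
The log2 ratio of the CPM in library 1 to that in library 2 (y axis) for the 12 clones with 2 libraries (x axis). Red circles are Socs3, orange squares Stat3, blue triangles Pim1 and grey dots the other 5 genes. Socs3 lies between 0.895 and 1.41 in clones 9-6, 10-24, 10-26 and 32-25, where Pim1 is below 0.

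Of 8 other negative regulators, 5 differed among the 7 groups, as did 69.6% of all tested genes. Socs2, a relative of Socs3 that restrains growth hormone signals, was higher in KO_mock, at 111 ± 6.38 CPM against 59.1 ± 5.19 CPM in WT_mock (0.91 ± 0.135, adjusted p = 0.000861). Ptpn1, a tyrosine phosphatase of JAK kinases, was higher too, at 38.2 ± 1.87 against 28.8 ± 2.01 CPM (0.41 ± 0.08, adjusted p = 0.00298). Ptpn6, the phosphatase SHP1, was at 61.3 ± 1.26 CPM in KO_mock against 46.1 ± 2.48 CPM in WT_mock (0.41 ± 0.104, adjusted p = 0.0106), and the call was lost without clone 5-2 or 12-1 (adjusted p up to 0.0915). Pias3, an inhibitor of STAT3 binding to DNA, was lower in KO_mock, at 17.8 ± 2.06 CPM against 22.4 ± 0.059 CPM in WT_mock (−0.33 ± 0.108, adjusted p = 0.0329), and leaving out any of 5 clones ended this call (adjusted p up to 0.246). It was highest in KO_ERRg_wt at 30.6 ± 0.531 CPM (0.78 ± 0.109 against KO_mock, adjusted p = 0.000319).

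Pim3 (chromosome 15, 88862194 to 88865726, plus strand) followed the groups more closely than Pim1. It had 39.8 and 35 CPM in the KO_ERRb_wt clones, 48.6 and 45.2 CPM in KO_ERRb_DBDm3, 54.5 and 63.9 CPM in KO_ERRb_DBDm6 and 52.7 and 53.7 CPM in KO_ERRb_AF2M6. It had 62.3 and 64.9 CPM in KO_ERRg_wt, 32.5 and 30.5 CPM in KO_mock and 47.4 and 43 CPM in WT_mock. KO_mock was below all other clones, KO_ERRb_wt lay between it and WT_mock without overlap, and KO_ERRb_DBDm3 overlapped WT_mock. Pim3 was lower in KO_mock than in WT_mock (31.5 ± 1.4 against 45.2 ± 3.13 CPM, log2 −0.52 ± 0.0946, adjusted p = 0.00208). It was higher than in KO_mock by log2 fold changes of 0.58 for KO_ERRb_DBDm3, 0.91 for KO_ERRb_DBDm6, 0.76 for KO_ERRb_AF2M6 and 1.02 for KO_ERRg_wt (standard errors 0.0947 to 0.0956, adjusted p from 2.92e-05 to 0.00164). These 5 calls held on leaving out any clone. The difference of 0.25 ± 0.0947 between KO_ERRb_wt and KO_mock did not pass the test (adjusted p = 0.181). Against KO_ERRb_wt, Pim3 was higher by 0.33, 0.66, 0.51 and 0.76 in the same 4 groups (adjusted p from 0.000286 to 0.0223), and the KO_ERRb_DBDm3 call was lost without clone 8-4 or 9-6 (adjusted p up to 0.153), in limma without a replicate block (0.0597) and with only library 2 of each clone (0.0925).

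Pim1 (chromosome 17, 29491045 to 29495459, plus strand) had 49.2 and 44.7 CPM in the KO_ERRb_wt clones, 54.5 and 29.9 CPM in KO_ERRb_DBDm3, 70.1 and 71.6 CPM in KO_ERRb_DBDm6 and 61.6 and 75.4 CPM in KO_ERRb_AF2M6. Levels were 66.4 and 61.4 CPM in KO_ERRg_wt, 38.2 and 38.5 CPM in KO_mock and 48.1 and 40.8 CPM in WT_mock. The KO_ERRb_DBDm6, KO_ERRb_AF2M6 and KO_ERRg_wt clones were above all others, and 1 KO_ERRb_DBDm3 clone lay below both KO_mock clones and the other above both WT_mock clones. Against KO_mock, Pim1 was higher by 0.89 ± 0.211 in KO_ERRb_DBDm6, 0.84 ± 0.211 in KO_ERRb_AF2M6 and 0.74 ± 0.212 in KO_ERRg_wt (adjusted p = 0.00651, 0.00972 and 0.0186). The KO_ERRb_DBDm6 call held without any clone. The KO_ERRb_AF2M6 call was lost without clone 12-1, 12-3 or 32-31 (adjusted p up to 0.0865), and the KO_ERRg_wt call without clone 12-1, 12-3, 14-1-10 or 14-11 (adjusted p up to 0.0956). Against KO_ERRb_wt, KO_ERRb_DBDm6 was higher by 0.59 ± 0.209 (adjusted p = 0.0431), a call lost on leaving out any of 12 clones (adjusted p up to 0.181). With only library 2 of each clone, Pim1 kept the KO_ERRb_DBDm6 call against KO_mock and lost the other 3 (adjusted p = 0.0581 to 0.0795). KO_mock and WT_mock differed by −0.21 ± 0.211, which did not pass the test.

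Of 11 other genes known as STAT3 targets in ESCs, 4 were higher, 3 lower and 4 not called in KO_mock against WT_mock, where 37.4% of all tested genes were called. Pim2, the remaining PIM kinase gene (chromosome X), moved opposite to Pim3 here: it averaged 38.7 ± 2.5 CPM in KO_mock against 8.54 ± 2.08 CPM in WT_mock (2.18 ± 0.238, adjusted p = 0.000189). It was lower than in KO_mock in every group with an ectopic protein, with 7.27 ± 2.3 CPM in KO_ERRb_wt (−2.41 ± 0.241, adjusted p = 0.00183), 12.9 to 18.3 CPM in the mutant groups and 5.77 ± 0.566 CPM in KO_ERRg_wt (−2.74 ± 0.252, adjusted p = 2.85e-05). These Pim2 calls held on leaving out any clone. Tfcp2l1, a naive-state transcription factor, was lower in KO_mock, at 488 ± 14.2 CPM against 639 ± 37.9 CPM in WT_mock (−0.39 ± 0.0712, adjusted p = 0.00218), and highest in KO_ERRg_wt at 993 ± 4.24 CPM. Klf5, another naive-state factor, was at 46.3 ± 0.197 CPM in KO_mock against 85.4 ± 4.03 CPM in WT_mock (−0.88 ± 0.0905, adjusted p = 0.00014), and it lies on chromosome 14, whose genes had a median of −0.61 in this comparison. Pramel7, which promotes the ground state, had 0 counts in KO_ERRb_DBDm6 and KO_ERRb_AF2M6, at least 17.6-fold and 18.5-fold lower than the 0.546 ± 0.129 CPM of KO_mock when set at 3 counts over the group. Reads shared between copies of its gene family were not counted.

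The knockout and wild-type cells differed in 5 of the 8 genes. In KO_mock against WT_mock, Osm, Il6st and Lifr were higher and Jak1 and Pim3 lower, while Stat3, Socs3 and Pim1 did not pass the test, and 37.4% of all tested genes were called in this comparison. The median log2 fold change of the 8 was −0.23, against 0.00 over all tested genes. Of 38 other pathway genes tested, 7 were higher, 9 lower and 22 not called.

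Wild-type ERR beta moved no member past the test. In KO_ERRb_wt against KO_mock, edgeR called 0 of the 8, with 4 below an unadjusted p of 0.05, DESeq2 called 1 (Jak1) and limma without a replicate block 2 (Jak1 and Il6st), against 1.85% of all tested genes called by edgeR. Without clone 9-6, and likewise without clone 9-8, edgeR called these 2 genes too, and the count over all genes was also higher. 1 of the 38 other pathway genes, Pim2, was called. In KO_ERRb_wt against WT_mock, Osm was higher and Jak1 lower (2 of 8, with 10.3% of all genes called), and 3 other pathway genes were higher and 4 lower.

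The DNA-binding mutant differed from KO_mock in 3 of the 8 genes, with Il6st and Pim3 higher and Lifr lower (25.7% of all genes called), and from KO_ERRb_wt in 5, with Il6st, Osm and Pim3 higher and Lifr and Jak1 lower (32.1%). Without clone 9-6 or 9-8 the count against KO_mock was higher. The count over all genes was higher without clone 9-6 and lower without clone 9-8. The TFIIH-binding mutant differed from KO_mock in 5, with Il6st, Pim1 and Pim3 higher and Lifr and Stat3 lower (41.4%), and from KO_ERRb_wt in 7, all but Socs3 (39%). The count of 7 was lower on leaving out any of 12 clones, and lowest without clone 10-24, where the count over all genes was lower too. The coactivator-binding mutant differed from KO_mock in 6, with Il6st, Osm, Pim1 and Pim3 higher and Lifr and Jak1 lower (37.1%), and from KO_ERRb_wt in 5, with Il6st, Osm and Pim3 higher and Lifr and Jak1 lower (43.2%). Without clone 9-6 or 9-8 this last count was higher, as was the count over all genes. Of the 38 other pathway genes, against KO_mock and then KO_ERRb_wt, 4 and 5 were higher and 9 and 6 lower in KO_ERRb_DBDm3, 6 and 6 higher and 10 and 9 lower in KO_ERRb_DBDm6, and 6 and 5 higher and 8 and 8 lower in KO_ERRb_AF2M6. These comparisons share their KO_mock and KO_ERRb_wt clones, so the agreement between them is not independent.

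ERR gamma differed from KO_mock in 4 of the 8 genes, with Il6st, Jak1, Pim1 and Pim3 higher (38.3% of all genes called). It differed from KO_ERRb_wt in 2, with Il6st and Pim3 higher (25.4%). Without clone 9-6 or 9-8 this count was higher, as was the count over all genes. Over all 7 groups, 7 of the 8 genes differed, all but Socs3, where 69.6% of all tested genes did. Of the 38 other pathway genes, 26 differed among the groups. The members' counts were not tested against the shares of all genes.

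**Figure D4:**
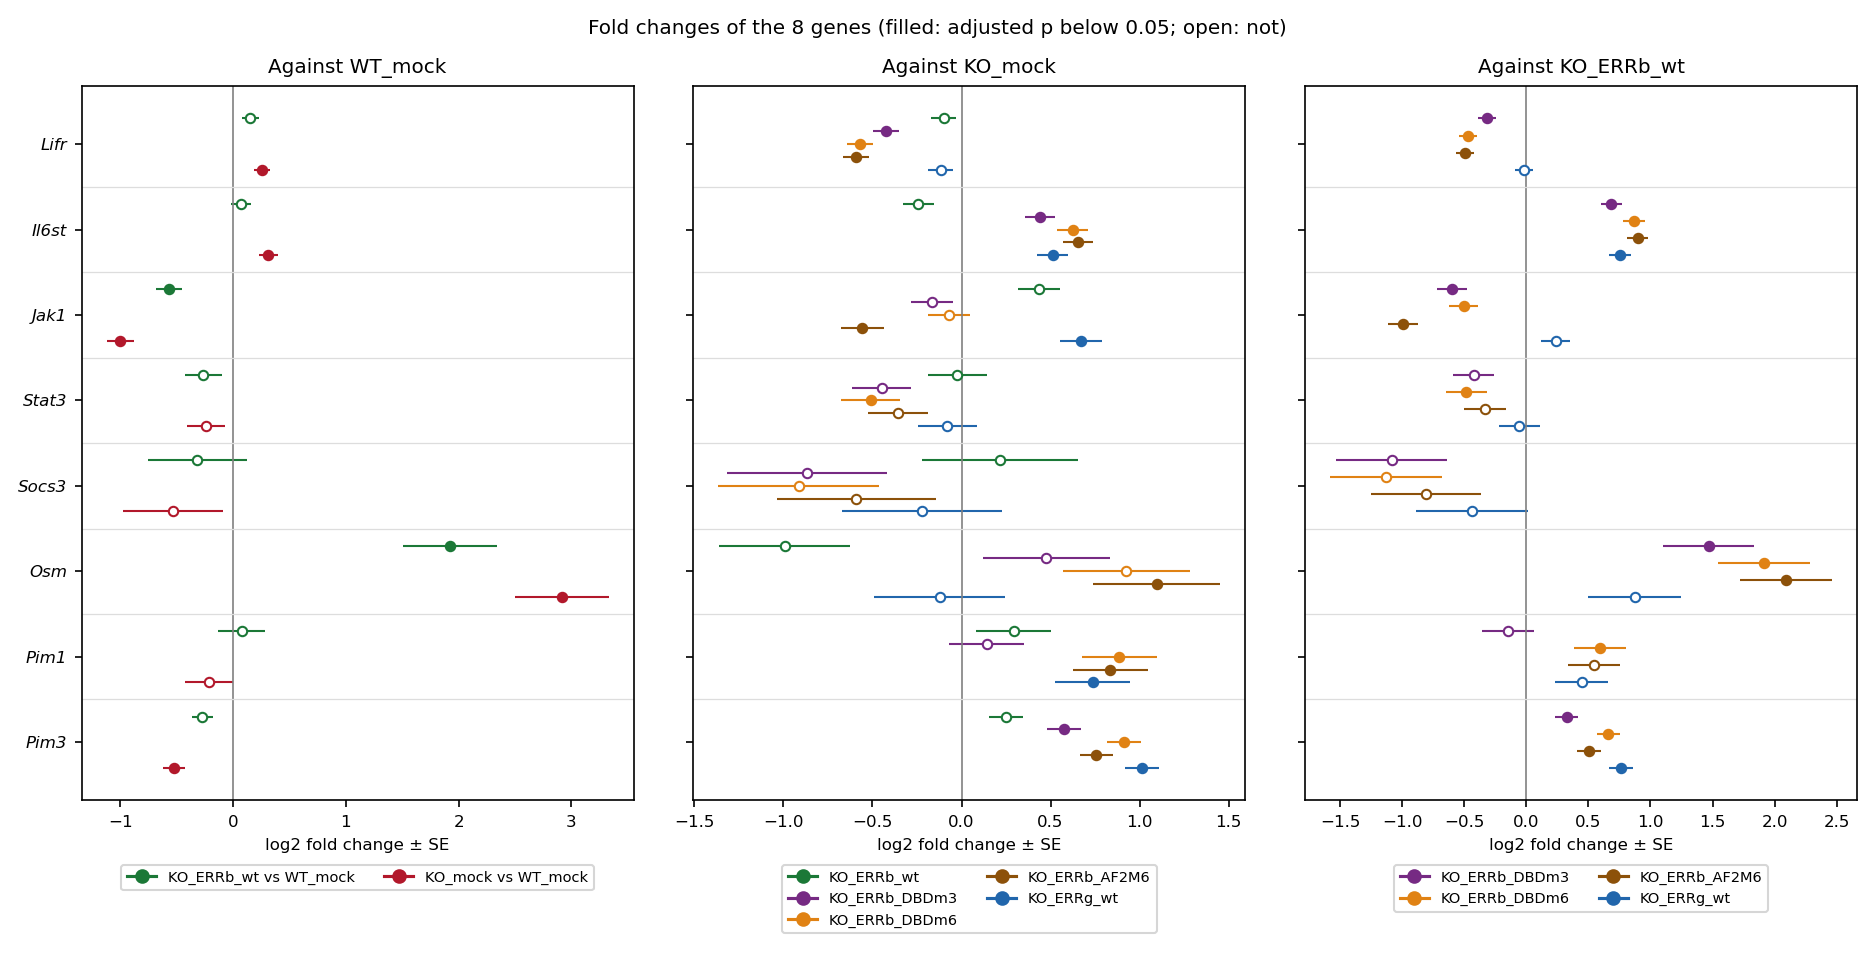
Log2 fold changes ± standard error (x axis) of the 8 genes (y axis) against WT_mock, KO_mock and KO_ERRb_wt, from 2 clones per group. Filled points passed the test and open points did not. Il6st and Pim3 lie right of 0 and Lifr left of 0 in the 3 mutant groups against KO_mock and KO_ERRb_wt.

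For each member, the gene with the highest Pearson's r of levels over the 14 clones is given as a description. The other members, and genes with predicted or small RNA names, were left out of this search. The clones come in 7 pairs of one group and share its treatment, and no p is attached. Pearson's r of log2 CPM was 0.988 for Il6st with Fnbp1, 0.985 for Jak1 with Heatr5b, 0.973 for Stat3 with Bcl2l1, 0.972 for Osm with Pdzrn4, 0.971 for Pim3 with Chchd10, 0.961 for Lifr with Brd9, 0.959 for Socs3 with Bcl2l1 and 0.917 for Pim1 with Mars. Stat3 and Socs3 thus shared their nearest gene among those searched, Bcl2l1, which encodes the survival protein BCL-XL and averaged 51.5 CPM. How near the members were to one another was not examined. The next nearest genes were Sod2 and Nup43 for Il6st, Zfpm1 and Lrba for Jak1, Atp12a and H2-Q10 for Stat3, Sod1 and Sfmbt2 for Osm, Ypel5 and Ndufa6 for Pim3, Zbtb16 and Luc7l2 for Lifr, Il17rc and Hs3st3b1 for Socs3, and Dnpep and St6galnac6 for Pim1.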

How the data were processed

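Total RNA depleted of ribosomal RNA was sequenced from strand-specific libraries as single-end reads, per the labels' protocols. The submitters' processing notes name STAR (version 2.7.8a) and the mm10 build. The deposited values are whole-number read counts per gene made with featureCounts. Its version is 2.0.1 in the file headers, while the notes have 2.0.10. Per the file headers, exons were counted on the reverse strand, a read in overlapping genes counted for each, and multi-mapping reads were not counted. None of the 8 genes shares exonic bases with another gene on its strand. All count columns were used.

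The counts of a clone's libraries were summed. Clone totals ran from 25103562 to 54105869. Genes were filtered with filterByExpr and scaled by TMM (0.972 to 1.05), and edgeR (version 4.0.16, R 4.3.3) tested group means by robust quasi-likelihood over the 14 clones together. There were 7 residual degrees of freedom. P-values were adjusted over 15238 genes (Benjamini-Hochberg), and a gene was called below 0.05. The prior count for log2 fold changes was 0.125, and standard errors are the absolute fold change over the square root of F. A p-value here reflects the spread between clones of a group, pooled over all groups and shrunk toward other genes' spread, and counting error. The spread between clones also carries whatever else set the clones of a group apart. RPKM divides CPM by the exon length deposited with the counts. Limits from a count of 0 use 3 counts and cover counting error only.

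Alternatives were RLE factors, TMM without chromosomes 6, 8 and 14, DESeq2 (version 1.42.0), limma (version 3.58.1) on libraries with clone as a random effect, no filter, leaving out each clone, and, added after the data were seen, only library 1 or 2 of each clone. The test was tried on simulated counts. The 8 genes, the lists, comparisons and motifs were chosen with earlier results of these data known. The other pathway genes are named by a rule, up to 4 per list called in KO_mock against WT_mock or among the 7 groups, by the smallest p among the 7 groups. Some genes this rule picks are not reported here.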

Additional observations from a re-analysis of the deposited data

Results flagged for a closer look

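48 sets of 4 libraries of a group (8 genes in 6 groups) were examined for 1 library far from the other 3, and 4 sets stood out. The limit used would flag about 5% of sets by chance if the 4 libraries were independent. They are not, since each set holds 2 libraries from each of 2 clones, so the chance rate here is not known. Lifr in KO_ERRb_DBDm3 was 121 CPM in library 1 of clone 9-6 and 108 to 109 CPM in the other 3 libraries. Jak1 in KO_ERRb_wt was 53.4 CPM in library 2 of clone 8-3 and 49.1 to 49.8 CPM in the others. Stat3 in the same library was 96.1 CPM, against 89.6 to 90.6 CPM in the others. Socs3 in KO_ERRb_AF2M6 was 6.15 CPM in library 2 of clone 32-25, against 11.2 to 12 CPM in the others, and this clone is 1 of the 4 in which Socs3 differed between libraries.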

How the results depend on the processing

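The direction of each of the 8 genes' differences held under RLE factors, DESeq2, limma and the absence of a filter, and other scalings moved the median of all genes by at most 0.048 in size (log2). In KO_ERRb_wt against KO_mock, DESeq2 called 1 of the 8 genes and limma on libraries without a replicate block 2, against 0 in edgeR. Over all genes, DESeq2 called 930 of 13910, limma 765 of 15238 and edgeR 282 of 15238. With only library 2 of each clone, the count was 0 in KO_ERRb_wt against WT_mock and 5 in KO_ERRb_DBDm3 against KO_mock. In that setting, 539 and 3138 of all 14391 tested genes were called in these comparisons. With only library 1, Pim1 in KO_ERRb_DBDm3 against KO_mock turned to −0.101. With only library 2, Pim1 in KO_ERRb_DBDm3 against KO_ERRb_wt turned to 0.091 and Jak1 in KO_ERRb_DBDm6 against KO_mock to 0.063. The cause was not tested.

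Leaving out 1 clone at a time, where the lone clone of a group is assumed to vary like the others, gave 3 to 7 called genes in KO_mock against WT_mock, 0 to 2 in KO_ERRb_wt against KO_mock, 0 to 3 in KO_ERRb_wt against WT_mock, 3 to 6 in KO_ERRb_DBDm3 against KO_mock, and, against KO_ERRb_wt, 4 to 8 in KO_ERRb_DBDm6, 5 to 8 in KO_ERRb_AF2M6 and 2 to 4 in KO_ERRg_wt. The counts of the comparisons not listed here changed too, by smaller factors. Log2 fold changes that changed sign ran from −0.055 to 0.006 for Stat3 in KO_ERRb_wt against KO_mock, −0.038 to 0.203 for Pim1 in KO_ERRb_wt against WT_mock, −0.246 to 0.949 for Osm and −0.36 to 0.509 for Pim1 in KO_ERRb_DBDm3 against KO_mock, −0.651 to 0.218 for Pim1 in KO_ERRb_DBDm3 against KO_ERRb_wt, −0.145 to 0.004 for Jak1 in KO_ERRb_DBDm6 against KO_mock, −0.267 to 0.004 for Osm in KO_ERRg_wt against KO_mock and −0.111 to 0.075 for Lifr in KO_ERRg_wt against KO_ERRb_wt.

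Libraries with the same replicate number in different clones did not deviate together (66 pairs of clones, median r 0.00412), except 6 pairs at 0.185 to 0.221, all among clones 9-6, 10-24, 10-26 and 32-25. With the replicate block in limma, Pim3 in KO_ERRb_DBDm3 against KO_ERRb_wt was 0.329 (adjusted p = 0.094), and Jak1 and Il6st in KO_ERRb_wt against KO_mock had adjusted p of 0.0555 and 0.0546, and Socs3 in KO_ERRb_DBDm6 against KO_ERRb_wt had 0.0505. The block gave no value for comparisons with KO_ERRg_wt, whose sample titles give no replicate number, or for the test among the 7 groups. The sequencing labels of the KO_ERRg_wt libraries all end like those of the later replicate of the other clones. This group may thus hold later replicates only, unlike every other group. The part of a difference between replicates in the KO_ERRg_wt comparisons was not tested. The lowest count behind a clone's value was 61, for Osm, which limits its precision.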
